A study of Homo sapiens with 15 samples.

Results

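The doxycycline-induced loss of YBX1 was examined as a single effect over SCC15 and SCC25, a pair of established oral squamous carcinoma lines. Of the 15 libraries of the series, 12 were used: all 6 −YBX1 libraries against all 6 +YBX1 libraries, with each line and replicate number forming 1 of 6 pairs. The +YBX1 groups (3 libraries of SCC15, 3 of SCC25) and the −YBX1 groups (likewise 3 and 3) all carried lentiviral Cas9 and a doxycycline-inducible guide construct against YBX1, although the labels give the +YBX1 cells a wild-type genotype, and were sorted as a GFP and mCherry double-positive pool rather than as a clone. The −YBX1 cells also received doxycycline at 1 µg/ml for 3 days, and the +YBX1 cells received none. No library with doxycycline but no YBX1 guide was analysed here, so the drug and the loss of YBX1 cannot be told apart. SCC15 grew in DMEM with serum and SCC25 in keratinocyte serum-free medium, so line and medium cannot be told apart either. Nothing in the labels says that replicates came from separate cultures, and p-values then measure the spread between these samples only. The remaining 3 libraries, of the normal oral line OKF6, had no knockdown and were not used.

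RNA was read by QuantSeq, a method that sequences the 3′ end of each mRNA. The values are log2 CPM, that is the log2 of the reads on a gene after scaling each library to the same total, for 12995 genes, with between 4780340 and 6090488 reads on genes per library. The top 10 genes of a library held 8.43% to 16.2% of its reads, and SCC25 −YBX1 replicate 2 had the largest such share. The line markers differed in kind. SCC25 expressed the basal keratins KRT5 (10.9 to 12.9 log2 CPM) and KRT14 (9.82 to 12.3 log2 CPM), and E-cadherin, CDH1 (6.74 to 7.51 log2 CPM). SCC15 was nearly without them, at no more than 3.04 log2 CPM for KRT5, 1.66 for KRT14 and 1.16 for CDH1, and TP63, which marks squamous basal cells, did not exceed −2.05 log2 CPM in any SCC15 library. Vimentin (VIM), a mesenchymal filament protein, was high in both lines, at 8.17 to 8.45 log2 CPM in SCC15 and 8.54 to 10.1 in SCC25.

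YBX1 (Y-box binding protein 1) belongs to the cold-shock domain proteins, which bind single-stranded RNA and DNA. In the cytoplasm it packages mRNA into messenger ribonucleoprotein particles and sets how readily they are translated, and in the nucleus it takes part in splicing and transcription. It was named for binding to the Y-box, an inverted CCAAT element in promoters. It is a substrate of kinases downstream of PI3K and mTOR, and high levels are common in carcinomas.

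YBX1 was the target and the check of the labels, and it fell in every pair. The YBX1 gene (ENSG00000065978) lies on chromosome 1 of hg38, at 42682418 to 42703805 on the plus strand. In SCC15 it stood at 5.11, 5.56 and 6.00 log2 CPM in +YBX1 replicates 1 to 3 and at 3.36, 3.71 and 3.13 in the −YBX1 replicates. In SCC25 it stood at 6.74, 6.31 and 6.62 log2 CPM with YBX1 and at 5.26, 4.70 and 3.65 without. The groups did not overlap within either line, although the SCC25 −YBX1 replicate 1 lay above the lowest SCC15 +YBX1 library. The pooled log2 change was −2.08 (SE 0.204, 95% interval −2.53 to −1.64, adjusted p = 0.00504 by limma with Benjamini-Hochberg adjustment, 6 of 6 pairs lower), a loss of 76.4% of the transcript (interval 67.8% to 82.7%). An exact two-sided sign-flip permutation test over the 6 pairs gave p = 0.03125, the smallest that 64 sign patterns allow.

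**Figure D1:**
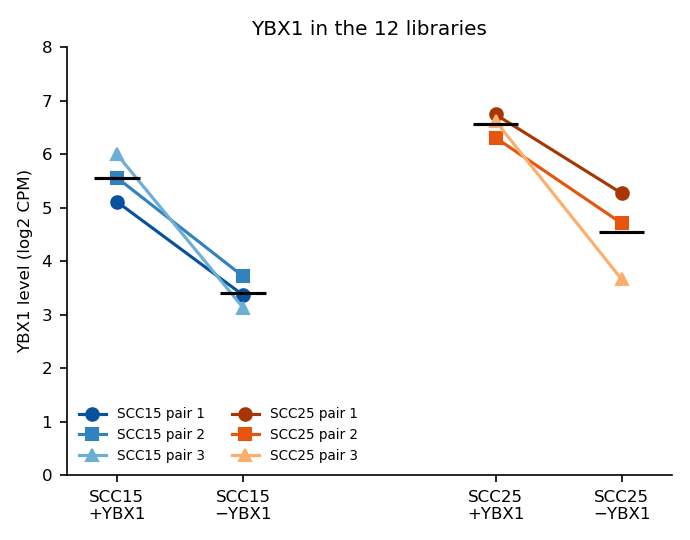
YBX1 level in log2 CPM (y axis) in the 12 libraries by line and group (x axis). Each line joins a same-numbered +YBX1 and −YBX1 library, and black bars are group means. All 6 lines slope down, and the steepest are pair 3 of SCC15 (−2.87) and pair 3 of SCC25 (−2.96).

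The depth of the loss differed among pairs more than between lines. Pairs 1 and 2 lost 70.2% and 72.2% of YBX1 in SCC15 and 64% and 67.0% in SCC25. Pair 3 lost 86.3% in SCC15 and 87.2% in SCC25. The mean change was −2.15 in SCC15 and −2.01 in SCC25, and the difference of 0.14 (SE 0.43, 95% interval −0.81 to 1.09) had an unadjusted p of 0.750 in limma. YBX1 has processed pseudogenes elsewhere in the genome, and how reads shared with them were counted is not given in the sources used here.

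The promoter of YBX1 is printed because it carries the letters for which the protein was named. It is the RefSeq window of 250 bases before to 50 bases after the start (GRCh38.p14, chr1:42682168-42682467, plus strand), with CCAAT or its reverse complement ATTGG in capitals.

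YBX1: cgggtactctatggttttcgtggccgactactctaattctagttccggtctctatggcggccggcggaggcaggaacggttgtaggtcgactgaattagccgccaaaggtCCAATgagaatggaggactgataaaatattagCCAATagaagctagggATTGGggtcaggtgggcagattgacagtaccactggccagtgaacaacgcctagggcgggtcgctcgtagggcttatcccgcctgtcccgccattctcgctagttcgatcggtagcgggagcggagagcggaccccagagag

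It holds 3 matches, beginning 140, 108 and 92 bases before the start. The same 5 letters on either strand were present in 3755 of the 10250 windows matched to a measured gene (36.6%), so their presence is common. The window of YBX1 holds none of the longer Y-box CTGATTGG, which contains ATTGG and was found in 5.40% of windows.

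The question put to the rest of the transcriptome was which changes SCC15 and SCC25 had in common. YBX1 was the only gene called, 1 of 12995 at an adjusted p under 0.05 (0.0077% of genes tested). No call was on the higher side. At an unadjusted p under 0.05 there were 598 genes (4.6%), 297 higher and 301 lower, and the smallest adjusted p after YBX1 was 0.930. Of all pooled estimates, 47% were above 0 and 53% below.

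The precision behind this count was uneven. Over the 6497 genes with a mean above the median level, the median SE was 0.129 on the log2 scale, and for 99.4% of them the 95% interval of the change lay between −1 and 1. For 79.5% it lay between −0.5 and 0.5. Among the lower 6498 genes the median SE was 0.298 and 61.0% of intervals lay between −1 and 1. A common change of 2-fold or more is therefore outside the interval for nearly all well expressed genes other than YBX1. Changes that lie inside a gene's interval were not excluded. Among the lower genes only 7.62% of intervals lay between −0.5 and 0.5. The smallest change that could be detected was not computed. In the upper 6497 genes, 1 pooled estimate exceeded 1 log2 unit in size, that of YBX1.

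Correlations of the 6 pair differences with one another, over the same 6497 genes, ran from −0.19 to 0.14 within a line and from −0.31 to 0.20 between lines. These are descriptions across genes, which share their libraries and are not independent replicates. The mean change in SCC15 and that in SCC25 correlated at 0.04, and 50.7% of genes had the same sign in both. Replicates did not overlap in the same direction in both lines for 34 genes (0.262%), 15 higher and 19 lower, and they did not overlap in opposite directions for 35 (0.269%).

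**Figure D2:**
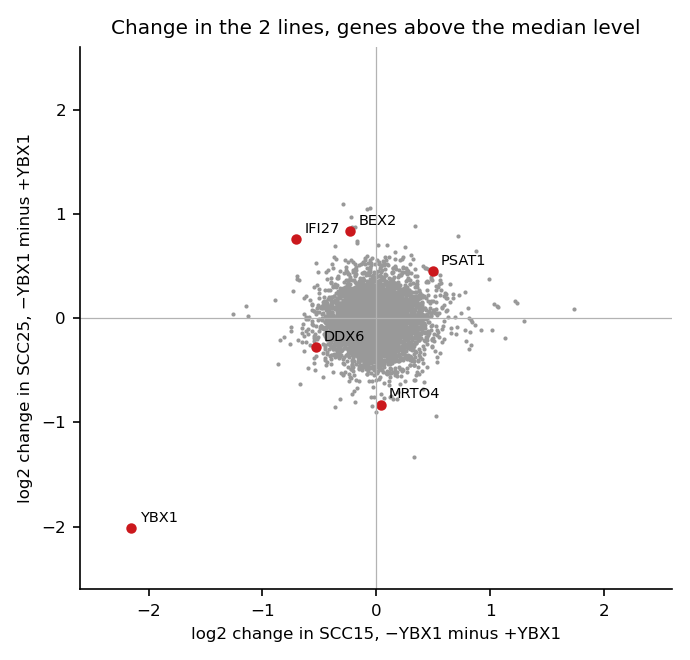
Log2 change in SCC15 (x axis) against log2 change in SCC25 (y axis), −YBX1 minus +YBX1, for the genes with a mean above the median level (grey points), with 6 genes named in the text in red. YBX1 sits alone at −2.15 and −2.01, and the remaining points form a cloud around 0 with no slope (correlation 0.04).

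The other cold-shock domain proteins were read next. Of 8 such genes, 6 were measured, and YBX1 alone fell. YBX3, a close relative, was at 7.85 to 8.10 log2 CPM in SCC15 and 7.77 to 8.07 in SCC25, with a pooled change of −0.08 (95% interval −0.25 to 0.10). CARHSP1, a stability factor for mRNA, was at −0.06 (interval −0.32 to 0.20). These 2 intervals exclude any common change of 2-fold. YBX2, the germ cell relative, and LIN28B, a repressor of let-7 processing, were nearly absent from one line each, and their intervals of −0.67 to 1.34 and −1.20 to 0.53 were wide. YBX2 did not exceed −2.16 log2 CPM in SCC15, and LIN28B did not exceed −0.94 in SCC25.

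The proteins that share mRNA particles with YBX1 include poly(A) binding proteins, the G3BP stress granule proteins, the IGF2BP family and the helicase DDX6. All 24 listed genes were measured and none passed the adjusted threshold. Of their estimates, 22 were below 0, where 53% of all genes were. An unadjusted p under 0.05 was found for 4, all lower (2.32% of all genes were). The list median was −0.14, with −0.17 in SCC15 and −0.13 in SCC25, and −0.11 without SCC25 pair 2. By pair, the medians were −0.31, −0.10 and −0.09 in SCC15 and 0.07, −0.32 and −0.06 in SCC25, so SCC25 pair 1 alone was above 0. The 95% interval of every member lay between −1 and 1.

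DDX6, which represses translation and marks processing bodies, had the smallest p of that list. It stood at 7.02, 6.97 and 6.87 log2 CPM in SCC15 +YBX1 against 6.09, 6.59 and 6.58 in −YBX1. In SCC25 it stood at 7.36, 7.53 and 7.77 against 7.36, 7.14 and 7.32, so that the groups were apart in SCC15 and all but touched in SCC25. The pooled change was −0.41 (SE 0.112, unadjusted p = 0.00352, adjusted p = 0.930 by limma). G3BP1 and G3BP2, which nucleate stress granules, were at −0.26 (interval −0.46 to −0.06) and −0.29 (interval −0.55 to −0.03), both lower in 6 of 6 pairs and both with overlapping groups.

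After YBX1, the genes with the smallest unadjusted p among those with a mean above the median and 1 direction in all 6 pairs were taken, 12 on the higher side and 11 on the lower. None passed the threshold, and each had an adjusted p of 0.930 (limma). Of all genes, 1.47% were higher and 1.75% lower in all 6 pairs, 418 genes in all, of which 56 had no read in both libraries of a pair, where library size alone sets the sign. The plot of these genes shows that their pooled estimates, between 0.32 and 0.49 on the higher side and between −0.55 and −0.33 on the lower side, were a fraction of that of YBX1.

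PARP2, a DNA damage sensing poly(ADP-ribose) polymerase, came first among the higher estimates. It stood at 5.79, 5.54 and 5.72 log2 CPM in SCC15 +YBX1 and at 6.29, 6.25 and 6.2 in −YBX1. In SCC25 it stood at 5.36, 4.99 and 5.38 against 5.84, 5.53 and 5.6. The groups did not overlap in either line, and the pooled change was 0.49 (SE 0.0996, 95% interval 0.27 to 0.70, unadjusted p = 0.000415). TSEN15, a subunit of the tRNA splicing endonuclease, was at 0.46 (interval 0.15 to 0.77) and likewise did not overlap in either line.

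Further estimates on the higher side included XBP1, a transcription factor of the unfolded protein response (0.44), and VEGFA, the angiogenic growth factor (0.46). OGA, which removes O-GlcNAc from proteins, was at 0.32. ECI1, an enzyme of mitochondrial fatty acid oxidation, was at 0.39, AARS1, the alanyl-tRNA synthetase, at 0.40, and the zinc finger gene ZNF516 and FAM131A at 0.46 and 0.40. XBP1, VEGFA, TSEN15 and AARS1 were highest in SCC15 pair 1, at 0.94, 1.03, 0.98 and 0.94, whereas PARP2 was not, at 0.50.

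EIF4EBP2, a translation repressor that binds the cap factor eIF4E and is released by mTOR phosphorylation, had the smallest p on the lower side after YBX1. In SCC15 it stood at 7.57, 7.33 and 7.30 log2 CPM with YBX1 and at 6.22, 7.01 and 7.16 without. In SCC25 the values were 6.89, 6.5 and 7.13 against 6.36, 6.13 and 6.6. The pooled change was −0.54 (SE 0.138, interval −0.84 to −0.24, unadjusted p = 0.00229), with SCC15 pair 1 at −1.35 and the other 5 pairs between −0.53 and −0.13. The groups did not overlap in SCC15 and did in SCC25.

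Of the rest on the lower side, RFLNB, a filamin-binding protein, PEX10, a peroxisome import factor, and CWC27, a spliceosome-associated protein, were apart in both lines, at −0.37, −0.33 and −0.45. CERK, the ceramide kinase, was at −0.36, and FGFRL1, an FGF receptor-like protein without a kinase, at −0.42. TRMT61A, the catalytic subunit of a tRNA methyltransferase, was at −0.55, with SCC25 pair 2 at −1.35, and LSM10, of the histone mRNA processing particle, at −0.37. ZNF503, a zinc finger gene, was at −0.36. The differences between the lines were not past the threshold for any of these genes.

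Amino acid stress genes and interferon-stimulated genes shared the highest pooled median of the 26 lists plotted, 0.25. Without SCC15 pair 1 the medians were 0.14 and 0.38. ATF4, a transcription factor translated preferentially when amino acids are short, drives genes for serine synthesis (PHGDH, PSAT1), asparagine synthesis (ASNS), aminoacyl-tRNA synthetases and glutathione turnover (CHAC1). Of 38 listed genes 37 were measured and none passed the adjusted threshold. Estimates were above 0 for 34 of them, against 47% of all genes, and 13 had an unadjusted p under 0.05 on the higher side (2.29% of all genes did) and 0 on the lower. The list median was 0.25, with 0.40 in SCC15 and 0.13 in SCC25.

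The pairs were far from alike in it. The list medians were 1.11, 0.17 and 0.08 in SCC15 and 0.04, 0.41 and −0.14 in SCC25. SCC15 pair 1 had 36 of the 37 members higher and SCC25 pair 2 had 32, while SCC25 pair 3 had 16. Without SCC15 pair 1 the pooled list median was 0.14, and without SCC25 pair 2 it was 0.28. The 2 pairs that lost most YBX1, pair 3 of each line, stood at 0.08 and −0.14. A relation between this list and the depth of the YBX1 loss was not tested.

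ASNS, asparagine synthetase, had its largest pair differences in SCC15 pair 1 (2.37) and SCC25 pair 2 (1.39). In SCC15 it stood at 4.96, 5.80 and 5.38 log2 CPM with YBX1 and at 7.33, 5.73 and 5.23 without, so only −YBX1 replicate 1 was apart. In SCC25 the values were 3.43, 3.93 and 3.6 against 3.93, 5.32 and 4.09. The pooled change was 0.75 (95% interval 0.14 to 1.36, unadjusted p = 0.02, adjusted p = 0.930 by limma), higher in 4 of 6 pairs.

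PSAT1 and PHGDH were each higher in 6 of 6 pairs, though not evenly. The rise of PSAT1 was largest in SCC15 pair 1 (0.98) and SCC25 pair 2 (0.94), with no more than 0.33 in any other pair. PSAT1 stood at 8.43, 8.10 and 7.88 log2 CPM in SCC15 +YBX1 against 9.42, 8.43 and 8.05, and at 6.89, 6.89 and 6.87 in SCC25 +YBX1 against 7.15, 7.83 and 7.03. Its pooled change was 0.47 (interval 0.19 to 0.75), and the SCC25 groups did not overlap. PHGDH was at 0.46 (interval 0.14 to 0.78), from 0.16 in SCC15 pair 1 to 1.37 in SCC25 pair 2. CHAC1 was at 0.81 with an interval of −0.12 to 1.74, from −0.68 in SCC15 pair 3 to 3.47 in SCC15 pair 1, and ATF4 itself was at 0.18 (interval −0.09 to 0.46).

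Promoter letters were set beside this list because ATF4 binds with C/EBP partners to elements close to TGATGNAA. These letters, on either strand, were found in 8 of the 31 list members with a promoter window (25.8%) and in 168 of all 10250 windows (1.64%). Within the nearest 150 bases before the start they were in 2 of 31 (6.45%), against 77 of all 10250 (0.75%). The windows of the 4 members with the smallest p that hold a match are printed over 50 bases (GRCh38.p14, gene strand), the match in capitals: AARS1 at chr16:70289664-70289713, ASNS at chr7:97872447-97872496, both on the minus strand, CHAC1 at chr15:40953242-40953291 and MARS1 at chr12:57488044-57488093, both on the plus strand.

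AARS1: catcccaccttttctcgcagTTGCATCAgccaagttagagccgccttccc
ASNS: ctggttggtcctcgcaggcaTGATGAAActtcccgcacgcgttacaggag
CHAC1: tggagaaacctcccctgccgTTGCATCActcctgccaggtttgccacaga
MARS1: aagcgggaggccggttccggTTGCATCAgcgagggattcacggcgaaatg

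AARS1, CHAC1 and MARS1, the methionyl-tRNA synthetase, share the 8 letters TTGCATCA, which are read from the other strand, while ASNS has TGATGAAA. Their pooled changes were 0.40, 0.81, 0.23 and 0.75 for AARS1, CHAC1, MARS1 and ASNS in that order. A match of letters is a description and not a bound site.

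Interferon-stimulated genes had a list median of 0.25, carried mostly by SCC25, and the difference between the lines in it was not tested. These genes, induced when interferon or foreign nucleic acid is sensed, encode antiviral effectors such as the OAS, IFIT and IFITM proteins. Of 62 listed, 60 were measured and none passed the adjusted threshold. Estimates were above 0 for 50, against 47% of all genes, and 11 had an unadjusted p under 0.05, all higher, as 2.29% of all genes did.

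In SCC15 the pair medians were −0.08, −0.06 and −0.04. In SCC25 they were 0.39, 1.12 and 0.19, and SCC25 pair 2, whose −YBX1 library had the highest share of reads in its top 10 genes, had 59 of 60 members higher. The median over members of the mean change was 0.06 in SCC15 and 0.51 in SCC25. Without SCC25 pair 2 the pooled list median was 0.11. In SCC15, 18 of the 60 had 3 reads or fewer in every library, against 1 in SCC25, and over the 42 above that floor the SCC15 median was 0.02.

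**Figure D3:**
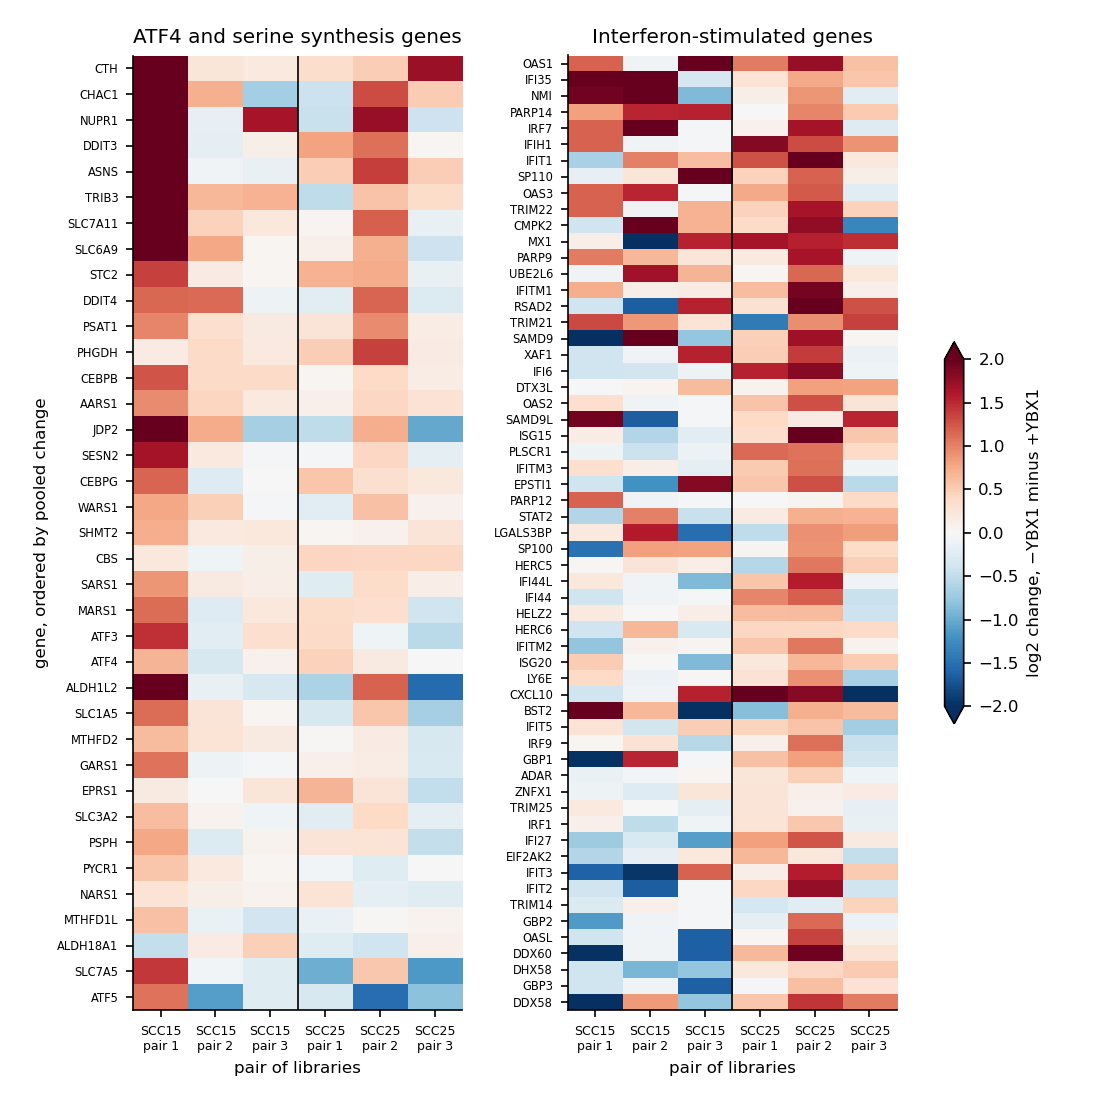
Log2 change, −YBX1 minus +YBX1 (colour, cut at −2 and 2), of the 37 ATF4 and serine synthesis genes and 59 of the 60 interferon-stimulated genes (rows, ordered by pooled change) in the 6 pairs (columns). SCC15 pair 1 (list median 1.11) stands out among the ATF4 genes and SCC25 pair 2 (list median 1.12) among the interferon-stimulated genes.

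Among single members, OAS1, which makes the activator of RNase L, had the smallest p of the list, with a pooled change of 1.21 (interval 0.42 to 2.00, unadjusted p = 0.00606, adjusted p = 0.930 by limma). It did not exceed −0.93 log2 CPM in SCC15, and in SCC25 it stood at 5.38, 6.2 and 4.15 with YBX1 against 6.41, 7.95 and 4.75 without. PARP14, an ADP-ribosyltransferase, was at 0.90 and IFITM1, a membrane protein that blocks viral entry, at 0.61, both higher in 6 of 6 pairs. PARP14 did not exceed −1.05 log2 CPM in SCC15, near the floor of reads, where its change was 1.29, against 0.50 in SCC25. The change of OAS1 was likewise 1.29 in SCC15, near that floor, and 1.12 in SCC25. That of IFITM1 was 0.34 in SCC15 and 0.88 in SCC25. ISG15, a ubiquitin-like modifier, stood in SCC25 at 6.62, 6.87 and 5.47 log2 CPM against 6.97, 8.89 and 6.00 and was overlapping between groups, with a pooled change of 0.38 (interval −0.21 to 0.96).

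The interferon response element is approximated here by a GAAA, any 2 bases and a second GAAA, on either strand. It was in 31 of 49 list members with a window (63.3%), against 2.63% of all windows. Matches were in 13 of the 228 windows of genes with an unadjusted p under 0.05 on the higher side (5.70%). On the lower side they were in 3 of 229 (1.31%). The 13 include the list members PARP14, IFITM1, OAS3, DTX3L, IFIH1 and IFIT1, so the higher share is not independent of the list. The 4 list members with the smallest p that hold the letters are printed over 50 bases, the first match in capitals: PARP14 at chr3:122680790-122680839, IFITM1 at chr11:313980-314029, OAS3 at chr12:112938311-112938360 and DTX3L at chr3:122564312-122564361, all on the plus strand (GRCh38.p14).

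PARP14: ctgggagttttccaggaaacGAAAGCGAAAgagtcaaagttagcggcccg
IFITM1: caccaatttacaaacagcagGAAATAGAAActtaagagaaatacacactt
OAS3: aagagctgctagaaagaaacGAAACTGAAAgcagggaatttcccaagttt
DTX3L: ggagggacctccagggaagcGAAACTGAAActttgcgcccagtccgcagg

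OAS3 and DTX3L share the same 10 letters. OAS3 was at 0.74 and DTX3L, a ubiquitin ligase partner of PARP9, at 0.40, the latter higher in 6 of 6 pairs. The remaining letters searched, CACGTG (the E-box of MYC and its relatives) and TTTCCCGC or TTTGGCGC (forms of the E2F site), were in 10.2% and 3.70% of all windows. CACGTG was in 7.46% of the higher and 14.4% of the lower windows at an unadjusted p under 0.05, and the E2F letters in 3.95% and 2.62%. CCAAT or ATTGG was in 37.7% and 37.6%.

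Antigen presentation and inflammatory genes gave pooled medians near 0, with the lines on opposite sides. The MHC class I median was −0.18 in SCC15 and 0.25 in SCC25, and the cytokine median −0.26 and 0.18, and these differences were not tested. In SCC15, 3 of the 10 MHC genes and 7 of the 16 cytokine genes had 3 reads or fewer in every library. Over the members above that floor the SCC15 medians were −0.07 and −0.43. By pair the cytokine medians in SCC25 were 0.43, −0.14 and 0.31. Of the 10 measured genes of MHC class I presentation, 3 were above 0, with a median of −0.03. SCC25 pair 2 again had the highest pair median, at 0.47 with 10 of 10 higher. HLA-B was at 0.98 with an interval of 0.07 to 1.89 and at most 31 reads in any library, and it belongs to a family whose members share sequence, so it is uncertain. B2M, the invariant light chain, was at 0.17 (interval −0.08 to 0.42). Of 16 measured cytokine and chemokine genes, 7 were above 0, with a median of −0.02, and CCL5 was at 1.05 (interval 0.12 to 1.98).

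The machinery of translation was measured with more precision. The 80 measured cytosolic ribosomal protein genes had a median of 0.02, 51 above 0 and 29 below, none with an unadjusted p under 0.05, and for 79 of them the interval lay between −1 and 1. Many have processed pseudogenes, so their values are uncertain in the way that of YBX1 is. The 51 initiation and elongation factors had a median of −0.03 with 34 below 0. EIF4G2, a scaffold for initiation without the cap, was at −0.26 (interval −0.50 to −0.03) and lower in 6 of 6 pairs, and EIF3J was at −0.20 (interval −0.43 to 0.02).

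Ribosome biogenesis factors, the nucleolar proteins that process and assemble rRNA, stood lower on balance. Of 100 measured, 90 estimates were below 0 and 10 above, 10 had an unadjusted p under 0.05 on the lower side (2.32% of all genes did) and none passed the adjusted threshold. The list median was −0.17, with −0.06 in SCC15 and −0.23 in SCC25. By pair it was −0.19, −0.04 and 0.03 in SCC15 and 0.00, −0.58 and −0.09 in SCC25, and without SCC25 pair 2 the pooled median was −0.08. NOC2L, a nucleolar assembly factor, was at −0.33 (interval −0.58 to −0.09) and lower in 6 of 6 pairs, and RRS1 was at −0.52 (interval −0.88 to −0.15) and lower in 5, with SCC25 pair 2 at −1.25.

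**Figure D4:**
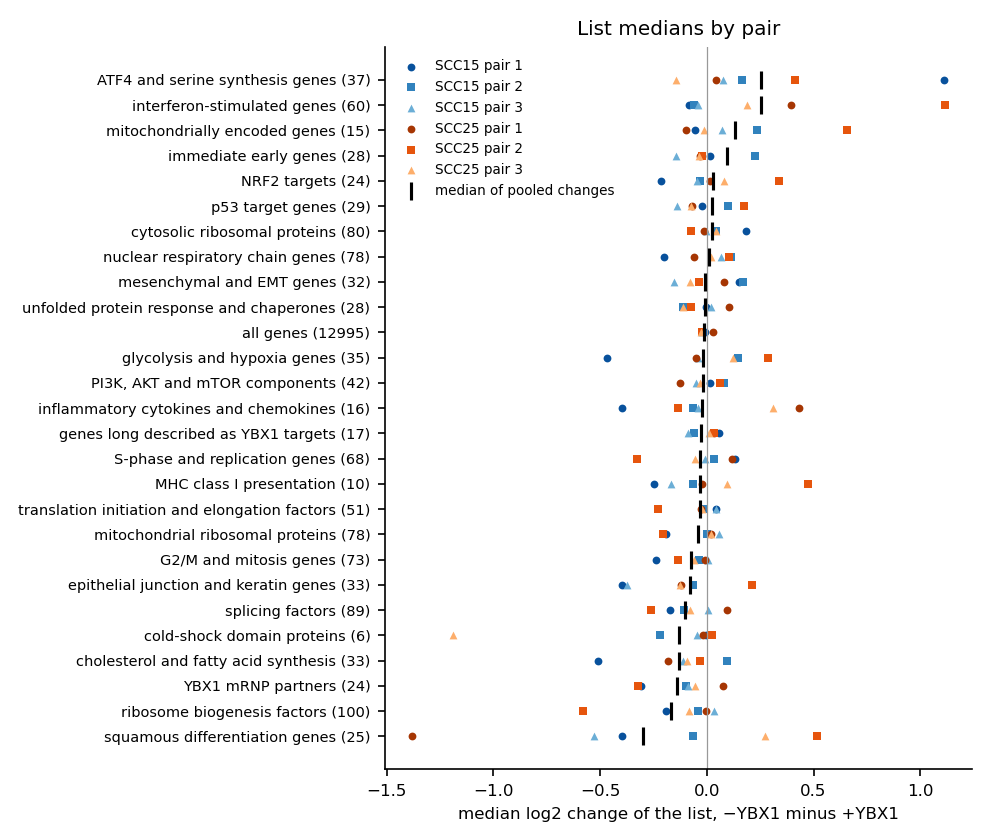
Median log2 change (x axis), −YBX1 minus +YBX1, of 26 gene lists and of all genes (y axis, number of measured members in brackets). Coloured points are the medians in each of the 6 pairs and black ticks the median of pooled changes. The ticks lie between −0.30 and 0.25, and SCC15 pair 1 and SCC25 pair 2 hold several of the outermost points.

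Splicing factors had a median of −0.10, with 66 of 89 below 0, and one of −0.043 without SCC25 pair 2. SRSF7 and SRSF3, serine-rich splicing factors, were at −0.34 and −0.30, and each was lowest in SCC25 pair 2, at −0.73 and −0.90. Genes that the literature has long tied to YBX1, such as EGFR, MET, CD44 and PCNA, had a median of −0.03 over 17 measured, 7 above 0 and 10 below, and none had an unadjusted p under 0.05. EGFR, the growth factor receptor, was at 0.23 (interval −0.16 to 0.62) and CD44, an adhesion receptor nearly absent from SCC15, at −0.55 (interval −1.37 to 0.27).

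The 68 S-phase and replication genes had a median of −0.03, 28 above 0 and 40 below, and all 68 intervals lay between −1 and 1. The 73 G2/M genes had a median of −0.08, 55 below 0, and again all intervals lay between −1 and 1. By pair the median was −0.24, −0.04 and 0.01 in SCC15 and −0.01, −0.13 and −0.06 in SCC25. Without SCC15 pair 1 the pooled median was −0.04. GTSE1, a mitotic microtubule protein, was at −0.42 (interval −0.72 to −0.12), lower in 6 of 6 pairs. CDC20, the anaphase activator, was at −0.22 (interval −0.43 to −0.02), CCNB1, cyclin B1, at −0.21 (interval −0.48 to 0.06) and MKI67, the proliferation antigen, at −0.17 (interval −0.39 to 0.04). CCNB1 stood at −0.92 in SCC15 pair 1 and between −0.21 and 0.03 in the other pairs. The highest estimate of the list was that of CKAP5, a microtubule polymerase, at 0.28.

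The p53 targets split evenly, 15 above 0 and 14 below, with a median of 0.02. CDKN1A, the cell cycle inhibitor p21, was at −0.11 (interval −0.30 to 0.07). GDF15, a stress cytokine that ATF4 also drives, was at 1.00 (interval 0.14 to 1.87), with 2.59 in SCC15 pair 1 and 2.32 in SCC25 pair 2 and no other pair above 1.06. Among 28 genes of the unfolded protein response and chaperones, 13 were above 0, with a median of −0.01. HSPA8, the constitutive cytosolic Hsp70, was at −0.65 (interval −1.23 to −0.08), and the same pairs stood apart, at −1.97 in SCC15 pair 1 and −1.69 in SCC25 pair 2 against −0.33 to 0.19 in the other 4. HERPUD1, an ER degradation protein, was at 0.49, with 1.31 and 1.17 in those pairs and no more than 0.42 elsewhere.

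Of the 15 mitochondrially encoded genes, 13 were above 0, with a median of 0.13. SCC25 pair 2 was at 0.66, and without it the median was 0.07. ND6, the complex I subunit encoded on the opposite strand from the rest, was at −0.65 (interval −1.04 to −0.27, unadjusted p = 0.00297, adjusted p = 0.930 by limma), lower in 5 of 6 pairs, and reads of the opposite strand could be counted to it, since the strand setting of the counting is not given. The 78 mitochondrial ribosomal proteins had a median of −0.04 and the 78 nuclear respiratory chain genes one of 0.01.

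PI3K, AKT and mTOR components, the pathway upstream of YBX1 phosphorylation, had a median of −0.02 over 42 measured, 18 above 0 and 24 below (53% of all genes were below), with 4 at an unadjusted p under 0.05, all lower (2.32% of all genes were). RPTOR, the defining subunit of mTOR complex 1, stood in SCC15 at 4.53, 4.96 and 4.65 log2 CPM with YBX1 against 4.51, 4.51 and 4.36, and in SCC25 at 4.95, 4.53 and 5.05 against 4.76, 4.05 and 4.31. Its pooled change was −0.36 (interval −0.65 to −0.07), lower in 6 of 6 pairs with overlap in SCC25. MAPKAP1, of mTOR complex 2, was at −0.25, and AKT1S1, the AKT substrate of mTOR complex 1, at −0.45.

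Epithelial and mesenchymal genes were listed because the study asked how YBX1 bears on the transition between these states. The 33 epithelial junction and keratin genes had a median of −0.08, 13 above 0, and the 32 mesenchymal genes one of −0.01, 16 above and 16 below. None of either list had an unadjusted p under 0.05. VIM was at −0.09 (interval −0.39 to 0.21), FN1, fibronectin, at 0.09 (interval −0.24 to 0.42), SNAI2, a repressor of E-cadherin, at 0.25 (interval −0.10 to 0.60) and CDH2, N-cadherin, at 0.04 (interval −0.39 to 0.48). PDPN, a glycoprotein of invading fronts, was at −0.14 (interval −0.38 to 0.09). These 5 intervals lay between −1 and 1. CDH1 was at −0.17 with an interval of −0.76 to 0.43, and EPCAM at −0.63 with an interval of −1.28 to 0.02. EPCAM lay at or below 0.82 log2 CPM in SCC15, where the pairs gave −0.40, −1.29 and −1.92, and SCC25 gave 0.13, −0.22 and −0.10.

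Squamous differentiation genes had the lowest pooled median of the 26, −0.30, with 19 of 25 below 0 and 3 at an unadjusted p under 0.05, all lower (2.32% of all genes were). The median was −0.033 without SCC25 pair 1, −0.16 without SCC15 pair 3 and −0.47 without SCC15 pair 2. In SCC15, 16 of the 25 had 3 reads or fewer in every library, and a difference between libraries without reads is set by their library sizes alone. In SCC25 the pair medians were −1.38, 0.52 and 0.27, so pair 1 opposed the other two. TGM3, a transglutaminase of the cornified envelope, stood in SCC25 at 2.93, 1.41 and −0.10 log2 CPM with YBX1 against 1.42, −0.56 and −1.79 without, lower in all 3 pairs with overlapping groups, and its pooled change was −1.33 (interval −2.26 to −0.41) at no more than 40 reads.

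Cholesterol and fatty acid synthesis had a median of −0.13 with 22 of 33 below 0, led by SQLE at −0.28, ACLY at −0.25 and LSS at −0.36, enzymes of sterol and acetyl-CoA synthesis. SCC15 pair 1 was at −0.51, and without it the pooled median was −0.062. Glycolysis and hypoxia genes had a median of −0.02 over 35, with EGLN1, the oxygen-sensing prolyl hydroxylase, at 0.35 (interval 0.09 to 0.61), higher in 6 of 6 pairs and without overlap in either line. NRF2 targets had a median of 0.03 over 24 and immediate early genes one of 0.09 over 28. FOSL1 was at −0.57 (interval −1.08 to −0.07), lower in 6 of 6 pairs, and MYC at 0.20 (interval 0.00 to 0.39), higher in 6 of 6.

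Whether the knockdown acted differently in the lines was tested by the difference of the changes, SCC25 minus SCC15. No gene passed an adjusted p of 0.05 (0%, limma), and 537 had an unadjusted p under 0.05 (4.13%). Within SCC15, in the fit of all 12 libraries, 0 genes were called and 552 had an unadjusted p under 0.05 (4.25%). Within SCC25 the counts were 0 and 720 (5.54%). YBX1 itself was not called within a line, with an adjusted p of 0.272 in SCC15 and 0.231 in SCC25 by limma. The absence of calls therefore does not show the absence of a change. With voom weights on the recovered reads, SCC25 had 1 call, YBX1, and SCC15 had 0.

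MRTO4, a ribosome assembly factor, had the smallest p of the difference among the genes taken. It stood in SCC25 at 6.89, 7.05 and 6.95 log2 CPM with YBX1 and at 6.23, 6.19 and 5.98 without, apart in all 3 pairs. In SCC15 it stood at 5.17, 6.32 and 6.39 against 5.31, 6.35 and 6.33, which overlap. The difference was −0.87 (SE 0.19, unadjusted p = 0.000788, adjusted p = 0.979 by limma).

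IFI27, an interferon-stimulated mitochondrial protein, stood in SCC25 at 9.83, 9.75 and 9.84 log2 CPM against 10.7, 11 and 10.02, and in SCC15 at 1.5, 0.13 and 1.06 against 0.79, −0.18 and −0.04. It was higher in all 3 SCC25 pairs and lower in all 3 SCC15 pairs, at a difference of 1.46 (unadjusted p = 0.000809). BEX2, a small adaptor of neural and tumour cells, stood in SCC25 at 3.55, 3.03 and 3.97 log2 CPM against 4.47, 4.13 and 4.45 and in SCC15 at 6.89, 7.20 and 6.59 against 6.74, 6.83 and 6.42. Its difference was 1.06 (unadjusted p = 0.000992), and both adjusted p-values were 0.979.

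Few markers of other cells were measured. Of 10 fibroblast markers, COL1A1 and LUM were measured and the other 8, among them DCN and PDGFRB, were not analysed here, and the summed level ran from 11.5 to 30.4 CPM in SCC15 +YBX1, 12.1 to 29.4 in SCC15 −YBX1, 22.1 to 98.1 in SCC25 +YBX1 and 32.3 to 62.2 in SCC25 −YBX1. LUM stood in SCC25 at −3.41, −1.76 and −3.27 log2 CPM with YBX1 and at 0.92, 0.72 and 1.14 without, with no more than 15 reads in any library. Its part in the results was not tested. Of the leukocyte markers, CD68 stood at 5.16 to 5.3 log2 CPM in SCC25 +YBX1 and at 5.45 to 5.68 in −YBX1, and it did not exceed 0.24 log2 CPM in SCC15. CD14 did not exceed 3.11 log2 CPM in any library. PTPRC and PECAM1 were not analysed here.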

How the data were processed

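The authors prepared QuantSeq FWD libraries from total RNA, and used Cutadapt for trimming, HISAT2 with hg38 for alignment, featureCounts for gene counts and limma for normalisation and filtering. The deposited YBX1 table holds log2 values: the log2 of the read count plus 0.5, scaled as CPM by the authors' normalised library size. Whole reads came back from 100% of values within 0.05 reads. The 95% intervals given here come from the limma fit of the log2 values, and they reflect the spread between these samples only. The cell line table was not used.

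Here the log2 values of 12 libraries were fitted with limma 3.58.1 in R 4.3.3 with terms for pair and knockdown and a trended eBayes step, all tests being two-sided, and p-values were Benjamini-Hochberg adjusted over 12995 genes at a threshold of 0.05. Same-numbered libraries were treated as pairs because the comparison was laid down that way. Their deviations from the group means correlated at 0.14 to 0.51 over 6497 genes in each of the 6 pairs. Libraries with unlike numbers correlated at −0.51 to 0.32, in 2 cases above a same-numbered pair of the same line: SCC15 +YBX1 2 with −YBX1 3 (0.32, pair 3 at 0.22) and SCC25 +YBX1 3 with −YBX1 1 (0.24, pair 1 at 0.14). The fit was tested on simulated data. Changes are on the log2(CPM) scale, which understates changes of rare transcripts.

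The comparison, the 28 gene lists and the tests were chosen with earlier results of these data known, so lists are described by counts and medians beside all genes. Genes were named by a rule: cold-shock genes; in each direction up to 12 called genes with 1 direction in all 6 pairs and a mean above the median, filled by smallest unadjusted p; 3 genes by the line difference, some genes that the rule or lists hold not being reported here; and 3 per list by p. ATF4, ASNS, CHAC1, MARS1, OAS3, DTX3L, ISG15, MX1, FN1, PDPN, CDKN1A and MKI67 were added after their values were seen. So were TGATGNAA and the medians without single pairs. Promoters are RefSeq windows (GRCh38.p14) and gene positions GENCODE 44. Alternatives were no replicate block, library medians set equal, quantile normalization, eBayes robust or without its trend, genes above the first quartile, voom and array weights, each pair left out, each line alone, other thresholds and a shorter promoter window.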

Additional observations from a re-analysis of the deposited data

Results flagged for a closer look

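In 16 of the 151 values examined (125 genes and 26 list medians), 1 of the 6 pair differences lay apart from the other 5 by Dixon's criterion. Chance alone gives about 1 in 20 such values. SCC25 pair 2 was the distant one for PHGDH (log2 change 1.37), TRMT61A (−1.35), IFITM1 (1.92), NFKBIA (0.52) and VIM (−0.87), and for the medians of translation initiation and elongation factors (−0.23) and ribosome biogenesis factors (−0.58). SCC15 pair 1 was the distant one for EIF4EBP2 (−1.35), G3BP2 (−0.80), CCNB1 (−0.92) and CD68 (−2.51). SCC25 pair 3 was the distant one for LIN28B (−2.43), COL1A1 (−1.70) and the median of the cold-shock domain genes (−1.19). MMP1 stood apart in SCC15 pair 2 (−2.87) and CDH1 in SCC15 pair 3 (−1.73), both in a line with few reads of the gene.

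In 4 of the 151 values examined, all 3 pairs of one line opposed all 3 of the other. How many such values chance alone gives was not computed. IFI27 and BEX2 had been taken for a small p of the line difference, so their place here follows in part from that choice. IFI27 differed between the lines, SCC25 minus SCC15, by 1.46 and BEX2 by 1.06, both with an adjusted p of 0.979 by limma. The list median of interferon-stimulated genes differed by 0.63 and that of NRF2 targets by 0.24, and these differences between list medians were not tested.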

How the results depend on the processing

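YBX1 was called in 13 of 16 alternative settings (change −2.21 to −1.91, adjusted p from 0.000158 to 0.0484), and it was not called with no variance trend (−2.08, adjusted p = 0.466), in the SCC15 pairs alone (−2.15, 0.243) or in the SCC25 pairs alone (−2.01, 0.998). The pooled count, and the count of list members called, were then 0, and the pooled count was 1 in each other setting, each pair left out and thresholds of 0.01 and 0.10 included. Without the replicate block, which ignores the pairing, YBX1 was still the 1 gene called, while the count of genes at an unadjusted p under 0.05 was 282 in place of 598. With a pair left out, that count ran from 422 (without SCC25 pair 2) to 897 (without SCC25 pair 1). Within SCC15 the count of calls was 1 among genes above the first quartile (YBX1), and 0 to 1 with a pair left out (LY6K at 3.63 without replicate 2). Within SCC25 it was 1 among genes above the first quartile and 1 with voom weights (YBX1 in both), and 0 to 2 with a pair left out (ADGRL1 at −3.15 and SLITRK5 at −3.82 without replicate 2, IFI6 at 1.68 and GALNT16 at −3.70 without replicate 3). CCAAT or ATTGG was in 27.1% of promoters over 150 bases before the start.

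Of 1966 values of the other 124 named genes under alternatives, 41 took the other direction and 0 passed the threshold. These were IFI27 under quantile normalization (−0.075), IFI27 (−0.16), KRT14 (−0.19) and CDH2 (−0.020) under array weights, and LIN28B (0.0027), KRT14 (−0.064) and CDH1 (0.052) under voom weights. In SCC15 alone they were LIN28B (0.12), MRTO4 (0.038), IFI27 (−0.70), BEX2 (−0.23), ND5 (−0.038), LUM (−0.036), VIM (0.011), CDH2 (−0.085), ISG15 (−0.22) and MX1 (−0.24). In SCC25 alone they were YBX2 (−0.22), CARHSP1 (0.015), CD44 (0.022), CDH3 (0.012), CD14 (0.21), KRT14 (−0.092) and CDH1 (0.085). With a pair left out, the ranges that crossed 0 were CARHSP1 −0.17 to 0.00085, LIN28B −0.47 to 0.081, IFI27 −0.22 to 0.25, COL1A1 −0.31 to 0.14, CD68 −0.13 to 0.74, KRT5 −0.72 to 0.43, KRT14 −0.26 to 0.51, KRT17 −0.53 to 0.16, CDH1 −0.31 to 0.15, TP63 −0.020 to 0.36, VIM −0.17 to 0.067, CDH2 −0.17 to 0.17 and FN1 −0.027 to 0.25. The cause was not tested. Of 448 list medians under alternatives, 3 moved by more than 1 SD of the pair medians.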

Other observations

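Several list members, most of them not named above, had the same direction in 5 or 6 pairs without passing the threshold (adjusted p = 0.930 for each by limma). SLC7A11, the cystine transporter, was at 0.68 (95% interval 0.11 to 1.26), with 2.30 in SCC15 pair 1 and 1.2 in SCC25 pair 2 and no other pair above 0.47. SLC2A3, a glucose transporter, was at 0.99 (interval 0.20 to 1.77) with at most 112 reads. SESN1, a stress-induced regulator of mTOR complex 1, was at 0.35 (interval 0.01 to 0.68), higher in 6 of 6 pairs and without overlap in SCC25. CKAP5, a microtubule polymerase, was at 0.28 (interval 0.02 to 0.55), and UQCRFS1, the iron-sulfur subunit of respiratory complex III, at −0.36 (interval −0.64 to −0.08).

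Among correlations of pair differences over the 6497 better expressed genes, the highest of the 15 was 0.198, between SCC15 pair 1 and SCC25 pair 2. These pairs come from different lines and share no library, and the value is a description across genes.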
